A study of Mus musculus with 6 samples.

Results

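The contactins and the L1 family are cell adhesion molecules of neurons and glia. The 10 genes described here are *Cntn1*, *Cntn2*, *Cntn3*, *Cntn4*, *Cntn5* and *Cntn6* of the contactins and *L1cam*, *Nrcam*, *Nfasc* and *Chl1* of the L1 family. They were taken by family membership out of 54532 genes in the table. No measured value entered that rule, but the members were chosen with earlier results of these data known. Poly-A RNA of the cerebellum of mice at postnatal day 1 (P1) was sequenced in bulk. 3 libraries were labelled control (genotype *Tox3f/f*, control littermates) and 3 were labelled mutant (genotype *Nestin-cre;Tox3f/f*, conditional knockout of *Tox3*), so animals of both groups carried the floxed *Tox3* allele. Nestin-cre expresses Cre recombinase across the developing nervous system and was present in the mutants alone, so effects of the transgene and of the deletion cannot be told apart. Whether each library came from a separate animal is not stated, and the p-values below then measure the spread between these libraries.

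*Tox3*, the targeted gene, was counted at 64.3, 63.0 and 64.4 CPM (counts scaled to the TMM-normalised library total) in controls 1 to 3 and at 55.3, 63.2 and 59.2 CPM in mutants 1 to 3, a log2 fold change of -0.11 (SE 0.06, adjusted p = 0.252, edgeR quasi-likelihood test). This count covers all exons of the gene and cannot serve as a check of the genotypes, and each direction below compares libraries by their label, mutant minus control. Total counts lay between 15391854 and 17178478 per library, at which 3 counts are at most 0.196 CPM. Control 1, mutant 1 and mutant 3 held Y-linked reads at 203 to 253 CPM, and the other 3 libraries held 0 to 0.128 CPM. The cerebellar genes *En1*, *En2*, *Zic1* and *Pax6* were counted in every library, at a sum of 2076 to 2164 CPM in controls and 1561 to 1659.9 CPM in mutants. All 4 were lower in the mutants, with log2 fold changes of -1.54 for *En1*, -0.99 for *Pax6*, -0.33 for *En2* and -0.30 for *Zic1*.

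Contactins are built from immunoglobulin and fibronectin type III domains and are held to the outer membrane by a lipid anchor, so they act through partners such as the Caspr proteins (Cntnap genes), receptor tyrosine phosphatases and L1 family members in the same or the opposite membrane. L1 family proteins have the same kinds of domains outside the cell, but cross the membrane and bind ankyrins, and through them the spectrin skeleton, with their tails. In the cerebellum these molecules are known for the growth and bundling of parallel fibres, the axons of granule neurons, for the migration of granule neurons, and for the placing of synapses and the axon initial segment on Purkinje cells.

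All 10 genes passed the filter on low counts, with 138 to 6939 counts per library, and together held 0.182% to 0.201% of all counts. By the thresholds in the study's methods, an adjusted p below 0.01 together with an absolute log2 fold change above 0.5, 3 of the 10 genes changed, and among all 17505 genes tested 6.66% did. *Cntn2* was lower in the mutants (3.63% of all genes tested were called lower), and *Cntn4* and *Cntn5* were higher (3.03% of all genes). *Nfasc* passed the adjusted p alone, and the other 6 genes passed neither criterion. By the adjusted p alone, 3 of the 10 genes were higher (6.55% of all genes were) and 1 was lower (7.24%), and at an adjusted p of 0.05, which 25.1% of all genes passed, the count of members was again 4. The median log2 fold change was 0.13 over the 10 genes and -0.01 over all genes, and 8 of the 10 values were positive, against 49.1% of all genes. The control and mutant CPM ranges did not overlap for 6 of the 10 genes (*Cntn1*, *Cntn2*, *Cntn4*, *Cntn5*, *Nfasc* and *Chl1*), which was so for 40.5% of all genes.

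**Figure D1:**
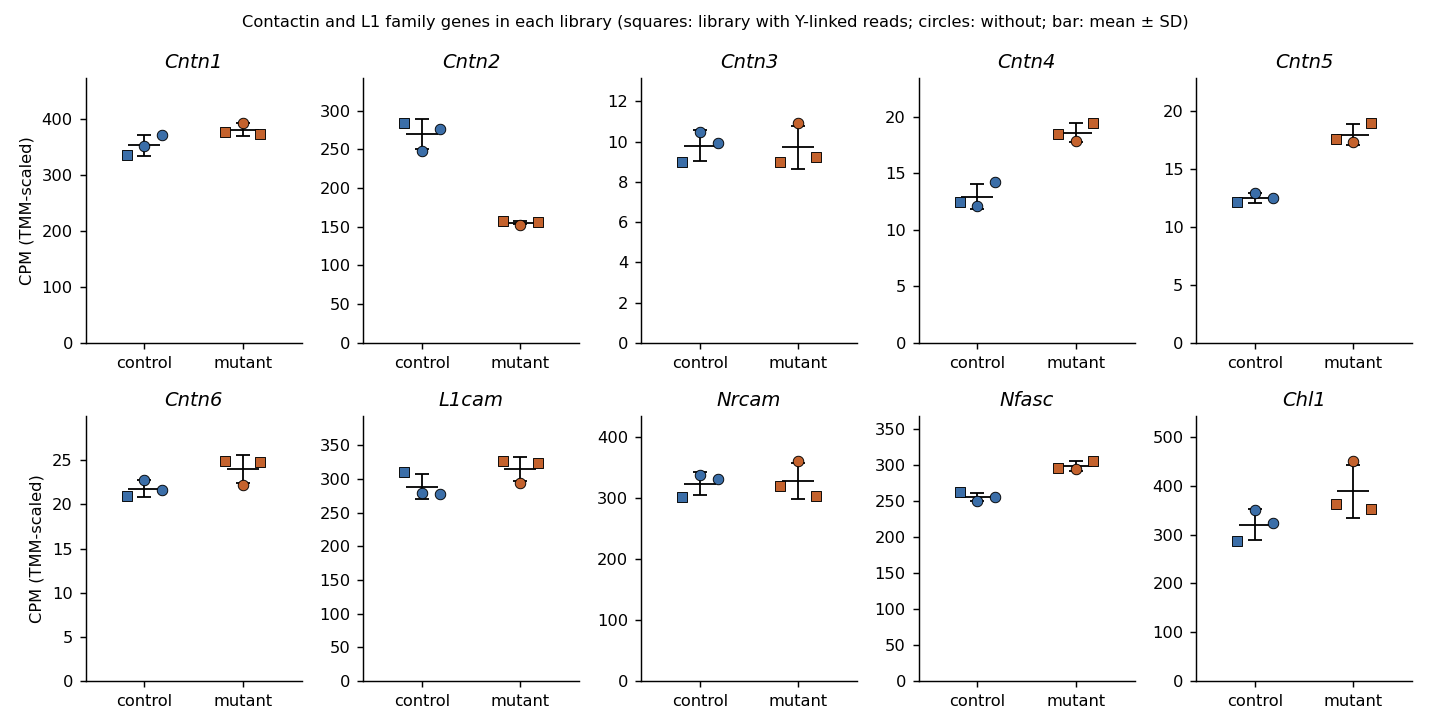
CPM of each of the 10 genes in each library, on a panel per gene, with points for the 3 control and 3 mutant libraries and a bar at the group mean. Cntn2 fell from a mean of 269 to 155 CPM, and the points of the groups do not overlap for Cntn1, Cntn2, Cntn4, Cntn5, Nfasc and Chl1.

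On the per-length scale, FPKM (fragments scaled to gene length and library total), which allows levels to be compared between genes, the 10 genes fell into an abundant and a scarce set. In controls the mean levels ran from *L1cam* at 38.95 FPKM through *Cntn1* at 37.0, *Cntn2* at 28.7, *Chl1* at 25.8, *Nrcam* at 24.1 and *Nfasc* at 17.9 to *Cntn6* at 3.32, *Cntn5* at 2.74, *Cntn4* at 1.51 and *Cntn3* at 1.44 FPKM. The library ranges of several neighbours in this order overlapped, namely *L1cam* with *Cntn1*, *Cntn2* with *Chl1*, *Chl1* with *Nrcam* and *Cntn4* with *Cntn3*. In mutants *L1cam* (42.7 FPKM) and *Cntn1* (40.1 FPKM) again had the highest means, and *Cntn2*, at 16.6 FPKM, stood below *Chl1* (31.5 FPKM), *Nrcam* (24.5 FPKM) and *Nfasc* (21.0 FPKM). *Cntn5* (3.94 FPKM) then had a higher mean than *Cntn6* (3.67 FPKM).

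*Cntn2* (ENSMUSG00000053024), also called TAG-1, is a contactin that appears briefly on young neurons, among them granule neurons that have just left the cell cycle and extend their parallel fibres. It lies on the minus strand at chr1:132509427-132543256 of GRCm38, and *Nfasc* (ENSMUSG00000026442) lies beside it on the same strand at chr1:132564690-132741797, with 21433 bases and no annotated gene between them. Because these neighbours differed in direction, the RefSeq start-site windows of both (GRCm38.p6, 250 bases before to 50 after the start, minus strand) are shown, *Cntn2* at chr1:132542891-132543190 and the more upstream of the *Nfasc* windows at chr1:132707277-132707576. Neither window holds a match to the 3 E-boxes searched on both strands, so no letter is in capitals. The forms searched were CAGCTG, its variant CAGATG and also the variant CACGTG, which differ in their middle letters. E-boxes are letters that basic helix-loop-helix factors bind, and which of the 3 forms *Atoh1* binds was not tested. A second *Nfasc* window, at chr1:132642809-132643108, holds CAGCTG 3 bases before its start site. The *Cntn2* window and both *Nfasc* windows lie inside the annotated genes, and counts per gene cannot tell which start site made the RNA.
Cntn2 promoter: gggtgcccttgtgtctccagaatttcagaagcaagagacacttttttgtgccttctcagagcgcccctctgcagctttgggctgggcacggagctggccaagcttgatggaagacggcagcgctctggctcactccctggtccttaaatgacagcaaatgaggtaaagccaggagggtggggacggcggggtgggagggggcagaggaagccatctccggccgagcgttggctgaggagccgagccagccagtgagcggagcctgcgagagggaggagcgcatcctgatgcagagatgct
Nfasc promoter: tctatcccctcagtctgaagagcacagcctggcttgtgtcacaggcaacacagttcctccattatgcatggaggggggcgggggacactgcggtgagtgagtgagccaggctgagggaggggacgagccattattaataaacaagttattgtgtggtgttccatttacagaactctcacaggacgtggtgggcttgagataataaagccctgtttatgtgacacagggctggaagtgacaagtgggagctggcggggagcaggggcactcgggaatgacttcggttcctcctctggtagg
The *Cntn2* window is 61.3% G or C with 13 CpG and the *Nfasc* window 54.3% with 7 CpG, against medians of 52.7% and 7 CpG over 32851 promoters.

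*Cntn2* was counted at 284.5, 247.3 and 276.3 CPM in controls 1 to 3 and at 157.4, 152.8 and 155.8 CPM in mutants 1 to 3. Every mutant library lay far below every control library. The fold was 0.577 and the log2 fold change -0.79 (SE 0.06, 95% interval -0.92 to -0.67, adjusted p = 1.79e-05), which placed *Cntn2* at rank 75 of the tested genes by p. The call was kept under all 19 alternative analyses, with log2 fold changes between -0.85 and -0.75.

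Markers of granule cells moved with *Cntn2*. All 7 of 7 granule neuron progenitor markers were called lower, with a median log2 fold change of -1.25 and a sum of 1183 to 1308 CPM in controls and 465 to 520.0 CPM in mutants. *Atoh1*, the basic helix-loop-helix factor of these progenitors, fell from 31.8 ± 0.873 to 0.362 ± 0.186 CPM (SD, n = 3). Of the 5 markers of postmitotic granule neurons 4 were called lower, with a median of -1.11 and a sum of 1485 to 1531 CPM in controls and 757 to 870.1 CPM in mutants, and among them the neuronal differentiation factors *Neurod1* and *Nhlh1* fell by 1.16 and 1.78 on the log2 scale. No marker of either list was at 0 in all libraries. The part of these cells in the fall of *Cntn2* was not tested, and in bulk RNA fewer cells of a type and less RNA per cell cannot be told apart.

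*Cntn1* (ENSMUSG00000055022, plus strand, chr15:92051165-92341967), also called F3 or contactin, is the broadly expressed member that pairs with Caspr and neurofascin where glia meet the axon. It was counted at 335.2, 350.6 and 371.3 CPM in controls and 375.6, 393.1 and 372.8 CPM in mutants. The ranges did not overlap but nearly met, and the log2 fold change of 0.11 (SE 0.05, 95% interval -0.00 to 0.23, adjusted p = 0.148) did not pass the test. *Cntn1* and *Cntn2*, the abundant contactins of the control cerebellum, thus had values of opposite sign.

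*Cntn4* and *Cntn5* are scarcer contactins, known from the sorting of olfactory axons (*Cntn4*) and from the auditory pathway (*Cntn5*). *Cntn4* (ENSMUSG00000064293) spans chr6:105677660-106699310 on the plus strand and *Cntn5* (ENSMUSG00000039488) spans chr9:9660891-10904775 on the minus strand. A RefSeq start-site window of each is shown because both were called higher. That of *Cntn4* is at chr6:106118515-106118814 (plus strand), inside the annotated gene, and that of *Cntn5* at chr9:10904726-10905025 (minus strand). Counts per gene cannot tell which start site made the RNA. Capitals mark the E-box CAGCTG, which starts 76 bases before the *Cntn4* start site, and the *Cntn5* window has none of the letters searched.
Cntn4 promoter: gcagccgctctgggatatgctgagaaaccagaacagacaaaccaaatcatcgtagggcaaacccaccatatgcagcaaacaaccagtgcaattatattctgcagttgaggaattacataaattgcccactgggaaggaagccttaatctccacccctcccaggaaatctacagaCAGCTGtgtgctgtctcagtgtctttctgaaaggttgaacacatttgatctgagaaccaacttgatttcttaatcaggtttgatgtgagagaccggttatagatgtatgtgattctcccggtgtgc
Cntn5 promoter: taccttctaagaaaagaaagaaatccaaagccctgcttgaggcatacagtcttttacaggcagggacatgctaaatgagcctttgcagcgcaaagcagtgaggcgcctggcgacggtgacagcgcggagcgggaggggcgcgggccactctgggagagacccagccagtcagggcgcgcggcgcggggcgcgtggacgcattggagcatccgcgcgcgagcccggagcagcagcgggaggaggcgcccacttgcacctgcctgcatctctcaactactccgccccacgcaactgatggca
The 10 genes had 16 start-site windows in the RefSeq table. CAGCTG was found in 4 of the 16, in *Cntn4*, *Cntn6* and *Nfasc*. The second *Cntn4* window, at chr6:106118692-106118991, holds it 5 and 33 bases after its start site. CAGATG (its other strand reads CATCTG) was found in 2, which are overlapping windows of *L1cam* that hold the same site. No window held CAGCTG and CAGATG together. Of all promoters of this length 16.3% hold CAGCTG, 17.2% hold CAGATG and 7.15% hold CACGTG, which was in 0 of the 16 windows. These matches are descriptions of the letters and name no binding site.

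*Cntn4* was counted at 12.5, 12.1 and 14.2 CPM in controls and 18.5, 17.9 and 19.5 CPM in mutants, with a log2 fold change of 0.52 (SE 0.10, 95% interval 0.30 to 0.74, adjusted p = 0.00385). *Cntn5* was counted at 12.1, 13.0 and 12.5 CPM in controls and 17.5, 17.3 and 19.0 CPM in mutants, with a log2 fold change of 0.52 (SE 0.09, 95% interval 0.32 to 0.73, adjusted p = 0.00278). For both genes all mutant libraries stood above all control libraries and the fold was 1.44. Both lay just past the fold threshold. The call of *Cntn4* was lost without control 1, control 2, mutant 1 or mutant 3 (adjusted p between 0.0159 and 0.0206) and that of *Cntn5* without control 1, control 3, mutant 1 or mutant 3 (adjusted p between 0.0110 and 0.0161), with the log2 fold change staying between 0.48 and 0.60 for *Cntn4* and between 0.48 and 0.56 for *Cntn5*. Neither was called with the fold threshold built into the test (glmTreat).

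*Cntn3* and *Cntn6*, which flank *Chl1* on chromosome 6, did not pass the test. *Cntn6* (ENSMUSG00000030092, plus strand, chr6:104492790-104863406) is known from the synapses between parallel fibres and Purkinje cells. It was counted at 20.9, 22.8 and 21.6 CPM in controls and 25.0, 22.2 and 24.9 CPM in mutants, so mutant 2 lay inside the control range, and the log2 fold change was 0.14 (SE 0.09, 95% interval -0.05 to 0.33, adjusted p = 0.267). *Cntn3* (ENSMUSG00000030075, minus strand, chr6:102162655-102573101), the member with the lowest level per length, was counted at 8.98, 10.5 and 9.95 CPM in controls and 8.998, 10.95 and 9.22 CPM in mutants. Its groups covered nearly the same range, and the log2 fold change of -0.01 had a 95% interval of -0.30 to 0.27 (adjusted p = 0.952), the widest of the 6 contactins.

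*Cntn3*, *Chl1*, *Cntn6* and *Cntn4* follow each other on chromosome 6 with 937, 743 and 814 kb between neighbours and no protein-coding gene in these gaps. Of these 4 neighbouring genes *Cntn4* alone passed both thresholds, and the differences among their fold changes were not tested.

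**Figure D2:**
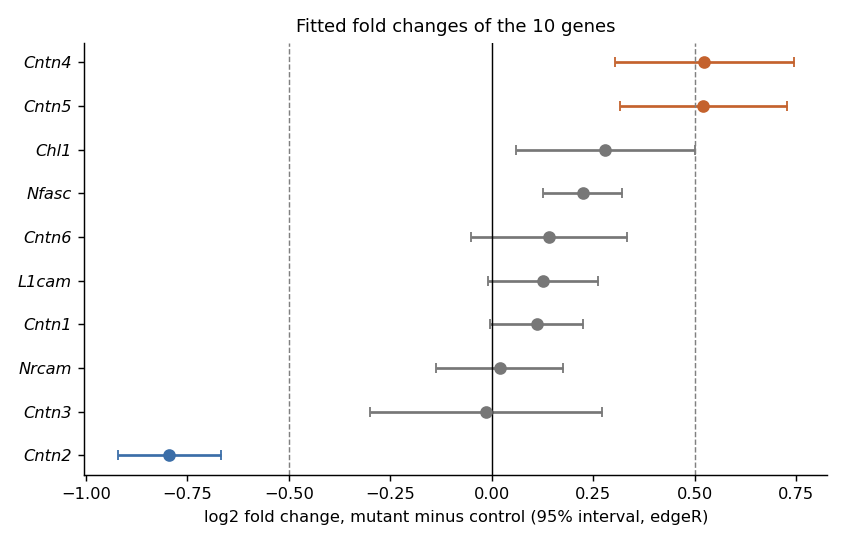
Log2 fold change, mutant minus control, of the 10 genes with the 95% interval of the edgeR fit, with lines at 0 and at the fold threshold of 0.5 on either side. Cntn2 lies at -0.79, Cntn4 and Cntn5 at 0.52, and the 4 L1 family genes between 0.02 and 0.28.

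Within contactin RNA, *Cntn2* took a smaller share in the mutants and *Cntn1*, *Cntn4*, *Cntn5* and *Cntn6* a larger one. Summed over the 6 genes, the contactin level was 74.7 ± 2.62 FPKM in controls and 68.0 ± 0.270 FPKM in mutants (SD, n = 3), a ratio of 0.910. *Cntn2* made up 40.9%, 36.4% and 37.9% of this sum in controls 1 to 3 and 24.9%, 23.8% and 24.6% in mutants 1 to 3, and the difference of the means was -14.0 percentage points. The share of *Cntn1* went from 49.5% ± 1.79 to 59.0% ± 1.16, that of *Cntn5* from 3.67% ± 0.216 to 5.80% ± 0.328, that of *Cntn4* from 2.02% ± 0.102 to 3.21% ± 0.167 and that of *Cntn6* from 4.45% ± 0.302 to 5.41% ± 0.407 (SD, n = 3 each). For these 5 genes the shares of the groups did not overlap, which in an exact two-sided permutation test of 3 libraries against 3 gives p = 0.1, the smallest p this design allows, and 0.2 after Benjamini-Hochberg adjustment over the 10 genes. The share of *Cntn3* was 1.93% ± 0.178 in controls and 2.11% ± 0.212 in mutants, and its groups overlapped (exact permutation p = 0.4). Taken from CPM, with no division by gene length, the share of *Cntn5* differed by 1.12 points in place of 2.14. Shares within a family are tied to each other, so a lower share of *Cntn2* raises the others even where their own level is the same.

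**Figure D3:**
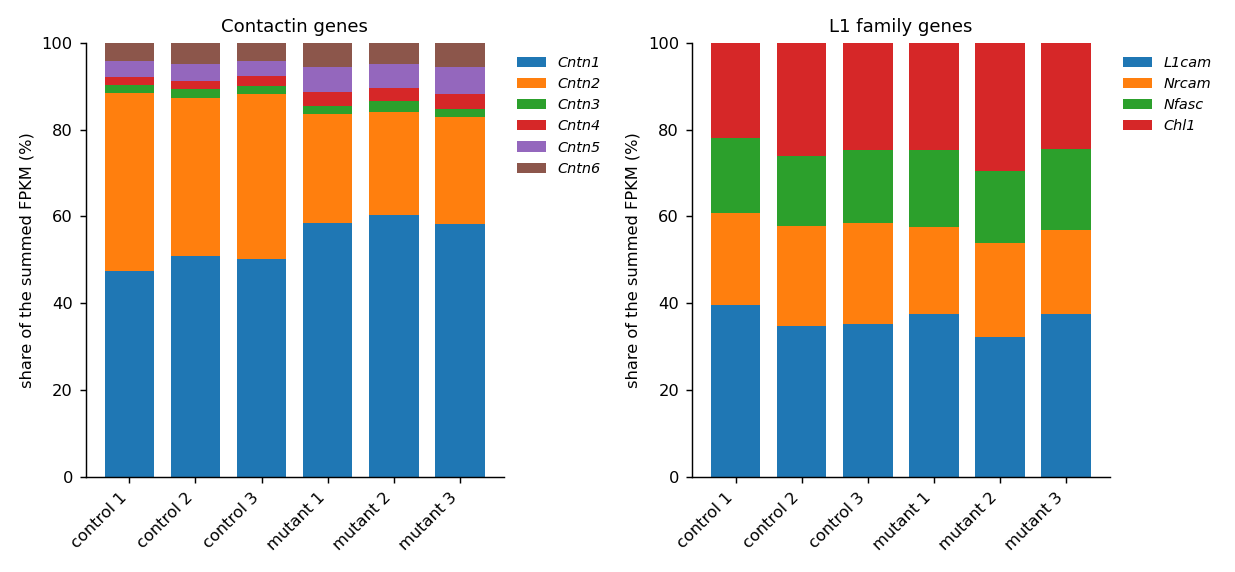
Share of each gene in the summed FPKM of its family, in percent, for each of the 6 libraries, with the contactins and the L1 family in separate panels. Cntn2 makes up 36.4% to 40.9% of contactin FPKM in the control libraries and 23.8% to 24.9% in the mutant libraries, while the shares within the L1 family overlap between the groups.

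The 4 L1 family genes all had positive log2 fold changes, and none passed both thresholds. *Nfasc*, neurofascin, which holds the axon initial segment and the node of Ranvier together, had the smallest spread of the 4. It was counted at 261.8, 249.5 and 254.9 CPM in controls and 295.1, 293.7 and 306.0 CPM in mutants, so that every mutant library lay above every control. The log2 fold change was 0.22 (SE 0.04, 95% interval 0.13 to 0.32, adjusted p = 0.00463), and 13.8% of all genes passed the adjusted p alone. With libraries left out in turn the adjusted p of *Nfasc* ran from 0.00397 (without mutant 2) to 0.0274 (without mutant 3), and it was above 0.01 in each case but the first. The log2 ratio of *Cntn2* to *Nfasc* per length was 0.72, 0.59 and 0.72 in controls and -0.30, -0.34 and -0.37 in mutants. In plain counts control 2 held 3799 for *Cntn2* and 3833 for *Nfasc*, so its positive sign rests on the division by gene length. Per length the ratio went from positive in every control to negative in every mutant, a difference of -1.02. This separation adds no support of its own. It follows from the CPM ranges of *Cntn2* and *Nfasc*, which did not overlap between the groups and differed in direction.

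*Chl1* (ENSMUSG00000030077, plus strand, chr6:103510586-103750211), the close homologue of L1, is known from the guidance of interneuron axons along Bergmann glia. It was counted at 286.9, 350.1 and 324.6 CPM in controls and 362.0, 452.2 and 353.5 CPM in mutants, with a log2 fold change of 0.28 (SE 0.10, 95% interval 0.06 to 0.50, adjusted p = 0.0655). That p fell under 0.01 with DESeq2 (0.00878), with no filter on low counts (7.57e-05) and with the replicate block (0.00406), while the log2 fold change was 0.17 without mutant 2 and 0.17 to 0.35 over all libraries left out in turn. The groups did not overlap, yet each was wide, and in each the library or libraries without Y-linked reads stood highest. In a fit with the presence of Y-linked reads as a factor, added after the data had been seen, the 3 libraries with Y-linked reads had less *Chl1* (log2 difference -0.29, SE 0.05, adjusted p = 7.1e-04, where 4.54% of all genes passed an adjusted p of 0.05). In that fit the mutant minus control difference of *Chl1* was 0.37 (SE 0.05, adjusted p = 1.76e-05), still under the fold threshold. Compared within libraries of one kind, the log2 ratio of mutant to control was 0.32 with Y-linked reads and 0.42 without them, from 1 or 2 libraries a side and with no test.

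*Nrcam* (ENSMUSG00000020598, plus strand, chr12:44328885-44601964), a partner of contactins on axons and at nodes, was counted at 302.6, 338.7 and 331.5 CPM in controls and 320.1, 362.1 and 304.1 CPM in mutants. The groups overlapped, with a log2 fold change of 0.02 (SE 0.07, 95% interval -0.14 to 0.18, adjusted p = 0.864). *Nrcam* was also lower in the libraries with Y-linked reads (log2 difference -0.18, adjusted p = 0.0214), and its mutant minus control value in that fit was 0.08 (adjusted p = 0.198). *L1cam* (ENSMUSG00000031391, minus strand, chrX:73853778-73896105), the founding member, which drives axon growth and bundling, was counted at 310.3, 279.0 and 277.0 CPM in controls and 327.5, 294.8 and 323.2 CPM in mutants. Its groups overlapped as well, the log2 fold change being 0.13 (SE 0.06, 95% interval -0.01 to 0.26, adjusted p = 0.162). *L1cam*, the X-linked member, differed by 0.15 between libraries with and without Y-linked reads, higher in those with them (adjusted p = 0.0538), and the difference between genotypes in that fit was 0.08 (adjusted p = 0.192).

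*Cntn2* was lower in the mutants among libraries of either kind. Its log2 ratio of mutant to control was -0.86 among libraries with Y-linked reads and -0.78 among those without. Control 1 was the only control with such reads and mutant 2 the only mutant without them, so the ratios given here were not tested. For *Cntn4* these ratios were 0.60 and 0.44, for *Cntn5* 0.59 and 0.45, for *Nfasc* 0.20 and 0.22 and for *Cntn1* 0.16 and 0.12. Among the 10 genes, *Cntn6* alone had ratios that differed in sign between the kinds of library, 0.25 with Y-linked reads and -0.00 without. The ratios of *Cntn3* were 0.02 and 0.10, against a fitted log2 fold change of -0.01.

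Summed per length, the L1 family stood at 107 ± 1.55 FPKM in controls and 119.6 ± 3.36 FPKM in mutants (SD, n = 3), a ratio of 1.12, with no overlap between the groups (exact two-sided permutation p = 0.1, the smallest possible). The shares of its members overlapped between the groups. *L1cam* held 36.5% and 35.7% of the sum in controls and mutants, *Chl1* 24.2% and 26.3%, *Nrcam* 22.5% and 20.4% and *Nfasc* 16.8% and 17.6%, with exact permutation p between 0.2 and 0.8.

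Many markers of Purkinje cells and of glia were higher in the mutants beside *Cntn4*, *Cntn5* and *Nfasc*, and those of other cell types went both ways. Of the 8 Purkinje cell markers 5 were called higher, with a median log2 fold change of 0.63 and a sum of 1529.8 to 1664 CPM in controls and 2124 to 2609.7 CPM in mutants (among them the corepressor *Skor2* at 0.78 and the calcium buffer *Calb1* at 0.68). Of the 6 astrocyte and Bergmann glia markers 3 were called higher (median 0.55), with 2185 to 2278 CPM in controls and 3233 to 3518 CPM in mutants, *Gfap* rising by 1.42 and *Gdf10*, a marker of Bergmann glia, by 1.18. Of the 5 oligodendrocyte lineage markers 3 were called higher (median 0.66), with a sum of 386 to 407 CPM in controls and 453 to 483 CPM in mutants. *Sox10* rose by 0.97, whereas *Pdgfra*, the receptor of oligodendrocyte precursors and the most abundant of the 5, stood at 194 ± 11.3 CPM in controls and 142 ± 3.24 CPM in mutants (SD, n = 3), with -0.45 (adjusted p = 3.07e-04), short of the fold threshold. The 4 markers of glutamatergic nuclear neurons had a median of 0.28 with 1 called higher, yet their sum was 122 to 129 CPM in controls and 112 to 116 CPM in mutants, and *Slc17a6*, a vesicular glutamate transporter and the most abundant of them, had -0.49 (adjusted p = 4.59e-04). Of the 3 GABAergic progenitor markers (median 0.02, sum 119.6 to 124 CPM in controls and 147 to 149 CPM in mutants), *Ptf1a* was called lower at -1.18 and *Pax2* had 0.46. The 4 markers of meninges had a median of 0.15 (1 called higher, sum 189 to 207 CPM and 257 to 306 CPM) and the 4 of endothelium -0.09 (0 called, sum 234 to 245 CPM and 225 to 237 CPM). Choroid plexus markers were uneven, with sums of 73.7 to 140 CPM in controls and 11.3 to 742 CPM in mutants and none of the 4 called. The part of these cell types in the differences of *Cntn4*, *Cntn5* and *Nfasc* was not tested.

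The genes that work with contactins and L1 proteins gave 34 further genes, all of them tested. Of these, 3 were called higher (3.03% of all genes were), 0 were called lower, and 27 had positive log2 fold changes with a median of 0.12. The number called higher was 1 with limma-trend on log2(FPKM + 1), 0 with glmTreat and 2 to 4 with libraries left out in turn.

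Among ligands and matrix molecules, *Tnr* (tenascin-R, a matrix ligand of contactins) rose from 46.7 ± 5.42 CPM in controls to 83.8 ± 6.19 CPM in mutants (SD, n = 3), which is 0.84 on the log2 scale (SE 0.09, adjusted p = 1.84e-04). The genes of this role with the next smallest p, *Ncan*, a proteoglycan that binds L1 and neural cell adhesion molecules, and *Ncam1* itself, had 0.43 (adjusted p = 4.06e-04) and 0.37 (adjusted p = 0.00120), below the fold threshold. *Aplp1*, a relative of the amyloid precursor protein, had 0.24 (adjusted p = 0.00960). The median over the 8 genes of this role was 0.20, and *Tnr* alone was called.

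Among receptors for semaphorins, which bind beside L1 family proteins, *Plxna4* rose from 87.6 to 128 CPM, a log2 fold change of 0.55 (adjusted p = 1.24e-04). *Plxna1* had 0.40 (adjusted p = 7.53e-04) and *Nrp2* 0.35 (adjusted p = 0.0122), and the median over 6 genes was 0.23.

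The ankyrins and spectrins, to which L1 tails are tied, differed in direction. *Ank1* rose from 81.9 to 119.8 CPM, a log2 fold change of 0.55 (adjusted p = 3.15e-04). *Ank3*, ankyrin-G of the axon initial segment, stood at 457 ± 16.6 CPM in controls and 345 ± 27.3 CPM in mutants, with -0.41 (adjusted p = 0.00122), and thus passed the adjusted p but not the fold threshold. *Sptan1* had 0.25 (adjusted p = 0.00240) and *Sptbn4*, the spectrin of the initial segment, 0.37 (adjusted p = 0.00394), also below it. The median over 6 genes was 0.18.

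Of the 7 Caspr genes, partners of contactins in the axonal membrane, 0 were called, with a median of 0.09. *Cntnap4* had 0.48 (adjusted p = 0.00630), *Cntnap2*, the partner of *Cntn2* along myelinated axons, 0.14 (adjusted p = 0.117), while *Cntnap1*, the partner of *Cntn1*, named outside the rule after its values were seen, had -0.02 (adjusted p = 0.895). None of the 3 phosphatases was called. *Ptprg*, which binds contactins, had -0.41 (adjusted p = 0.00519), *Ptpra* 0.18 (adjusted p = 0.0137) and *Ptprz1*, a ligand of *Cntn1* on glia, 0.23 (adjusted p = 0.0978). *Dcx*, which binds the tail of neurofascin, had -0.33 (adjusted p = 0.0689), and the 3 proteases that cut these proteins, *Bace1*, *Adam10* and *Adam17*, had log2 fold changes between -0.05 and 0.05, with 0 called.

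**Figure D4:**
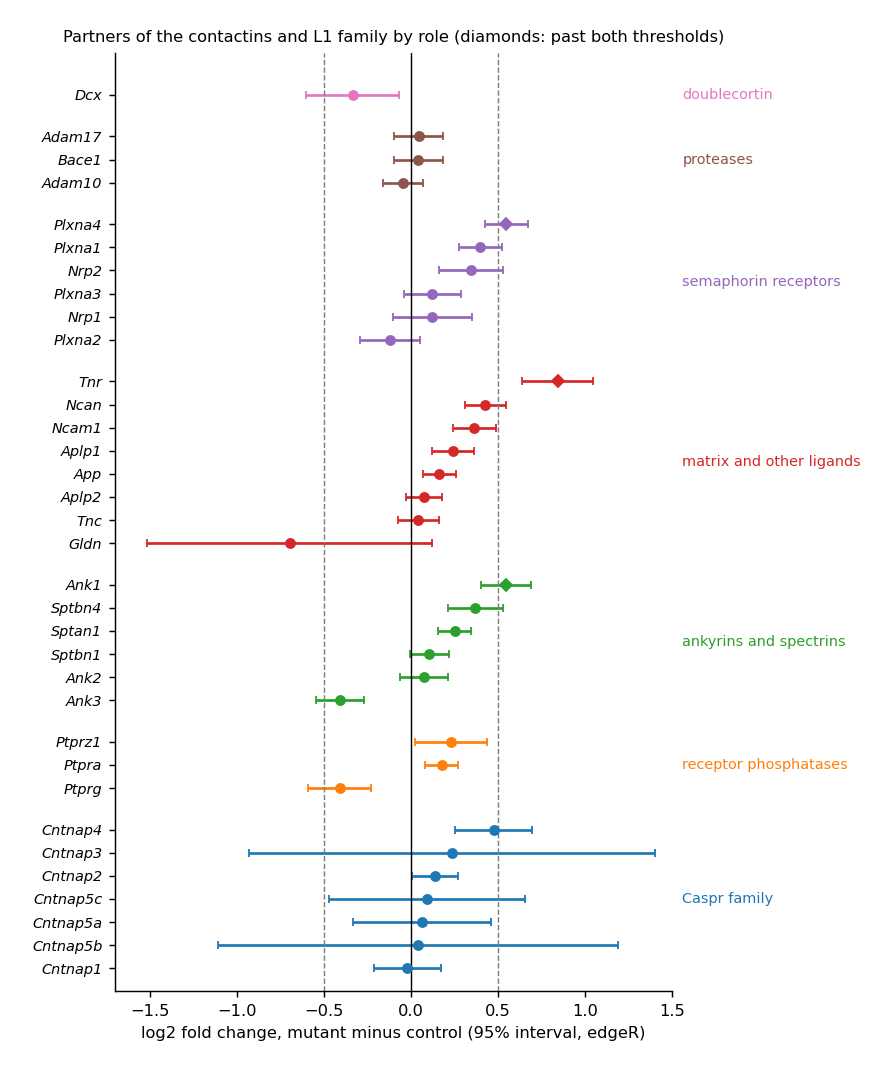
Log2 fold change, mutant minus control, of the 34 partner genes grouped by role, with the 95% interval of the edgeR fit and lines at 0 and at the fold threshold on either side. Tnr at 0.84, Plxna4 at 0.55 and Ank1 at 0.55 are the 3 genes that passed both thresholds.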

How the data were processed

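Bulk RNA-seq of 6 libraries was analysed, grouped by their labels. The authors aligned reads to mm10 with HISAT2 2.0.5 and deposited counts per gene from featureCounts 1.5.0-p3, not normalised. Gene coordinates are those of GRCm38. Strand setting, annotation release and the treatment of multi-mapping reads are not given in the sources used here. Genes that overlap the 10 members held 0 to 250 counts over all libraries, the most in *Arhgap4* beside *L1cam*. The FPKM values were deposited by the authors and served for levels between genes and for shares. The gene length column was used as deposited.

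From the counts, edgeR 4.0.16 (filterByExpr, TMM, glmQLFit, glmQLFTest) in R 4.3.3 gave log2 fold changes and p-values, adjusted by Benjamini-Hochberg over all 17505 genes tested, which held 99.8% of the counts. Shares and summed levels were compared by exact permutation. The genes named were all members, *Tox3*, every partner past both thresholds and up to 3 per role or marker list by smallest p. *En1*, *En2*, *Zic1* and *Pax6* are named as checks of the tissue. One list of tissue markers is not reported here. Members, lists and tests were chosen with earlier results of these data known. DESeq2 1.42.0, limma 3.58.1 on log2(FPKM + 1) and log2(FPKM + 0.1), other scalings, filters and thresholds, a replicate block and each library left out served as alternatives. On simulated counts edgeR recovered 98 of 100 genes changed by 1.5 and 85 of 100 changed by 0.8 (log2), with 5 false calls among 17495. The changed genes were drawn from the better expressed ones, and folds as small as those of *Cntn4* and *Cntn5* were not simulated. Same-group libraries differed beyond sampling noise (chi-square per gene 3.64 to 10.1), so none was a copy. Counts limit precision most for *Cntn3*, with 138 counts in its lowest library.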

Additional observations from a re-analysis of the deposited data

How the results depend on the processing

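Across 19 alternatives no called result changed sign, and the fall of *Cntn2* was called in all. *Cntn4* and *Cntn5* were not called under limma-trend on log2(FPKM + 1) (0.34 and 0.40) or glmTreat (0.52 and 0.52), nor *Cntn4* on log2(FPKM + 0.1) (0.50). Members called higher then numbered 0, 0 and 1, and partners called higher 1 with log2(FPKM + 1) and 0 with glmTreat, which called 3 markers higher. At an adjusted p under 0.05 with no fold threshold, *Nfasc* (0.22) was called, with 13 partners higher and 2 lower. The share of *Cntn5* differed by 1.12 points when taken from CPM, against 2.14 from FPKM. *Cntn3* stood at 0.0033 with library size alone, 0.0065 with the length trend removed, 0.055 with Y-linked level as covariate and 0.061 with Y-linked reads as a factor (added after seeing the data). Left out in turn, libraries gave *Cntn3* -0.097 to 0.039, *Nrcam* -0.045 to 0.073, *Cntn4* 0.48 to 0.60, *Cntn5* 0.48 to 0.56 and 0 to 2 members higher (0 without control 1, mutant 1 or mutant 3, 1 without control 2 or control 3). Marker medians moved as follows. Granule neuron progenitor: -1.15 (at least 10 counts in every library), -1.10 (Y-linked covariate), -1.09 (Y factor), -1.38 to -1.10 (libraries left out). Oligodendrocyte lineage: 0.69 under both Y-linked fits, 0.64 on log2(FPKM + 1), 0.63 with the length trend removed, 0.62 to 0.73 (libraries left out). Glutamatergic nuclear neurons had 0.13 on log2(FPKM + 1), postmitotic granule neurons -0.98 with the length trend removed, and choroid plexus 0.080 to 1.51 with libraries left out. The causes were not tested. Calls over all genes, 530 higher and 635 lower, became 30 and 145 (glmTreat), 2136 and 2252 (no fold threshold), 330 and 441 (log2(FPKM + 1)) and 349 and 492 (without mutant 3). Correlations of deviations between same-number libraries were 0.26, 0.30 and -0.16. Those of control 1 with mutant 3 and of control 3 with mutant 2 were 0.28 and 0.23. Every pair alike in Y-linked reads had a positive value, and every unlike pair a negative one (-0.44 to -0.12). The sign thus went with Y-linked reads and not with replicate number. Whether replicate numbers pair the libraries was not tested. With the replicate block *Cntn2* had -0.79 (adjusted p = 7.72e-06), *Cntn4* 0.53, *Cntn5* 0.52 and *Chl1* 0.28 (adjusted p = 0.00406), 2 members were called higher and 1 lower, and all genes gave 561 higher and 696 lower.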
